A study of Mus musculus with 15 samples.

Results

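Peroxisomal fatty acid oxidation is represented here by 9 genes: Abcd3, Ehhadh, Hsd17b4, Acaa1a, Acaa1b, Scp2, Decr2, Crot and Pex11a. They were chosen by name, as the probe sets whose single gene symbol in the array annotation is one of these, and make up 9 of the 19505 genes that the annotation names. Each gene had 1 probe set, so no choice among probe sets arose. Liver RNA was measured on Clariom S mouse arrays in C57BL/6 mice of a line colonized with human microbiota, kept in plastic isolators according to the labels and in airtight, filtered cages according to the methods. The 5 groups of 3 arrays received fructose with potassium sorbate (fructose+sorbate), fructose with sodium nitrite (fructose+nitrite), fructose with sodium benzoate (fructose+benzoate), fructose alone, or plain water. Fructose was given at 10% (w/v) in the drinking water over 11 weeks, starting at an age of 3 weeks, each preservative was dosed to the estimated highest daily intake in Europe, and the labels state an age of 11 weeks where start and duration add up to 14 weeks. No group received a preservative without fructose, so a preservative was seen only on top of fructose.

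The peroxisome shortens very long-chain, branched and dicarboxylic fatty acids that mitochondria handle poorly, and passes the shortened acyl chains on for further use. An activated fatty acid enters through an ABC transporter of the membrane, is oxidized, hydrated and dehydrogenated, and is cut by a thiolase, after which a carnitine acyltransferase can carry the product out. In rodent liver many genes of this pathway are targets of the nuclear receptor PPARα, whose ligands were first known as peroxisome proliferators.

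In fructose livers, 6 of the 9 genes rose against water livers: the transporter Abcd3, both bifunctional enzymes (Ehhadh and Hsd17b4), both thiolases of the Acaa1 pair, and Pex11a. The largest change was that of Acaa1b, 9.04-fold, and the other 5 lay between 2.29-fold and 4.92-fold. Crot, Scp2 and Decr2 did not pass the test. With the mean of the hybridization controls (added bacterial transcripts) as a covariate, 0 of the 6 rises passed, and 0 probe sets of the whole array did. The call of Pex11a was also lost in 5 of 6 fits that left out 1 array. In fructose+sorbate livers, Scp2 was 4.68-fold lower than in fructose livers and Acaa1a 2.02-fold lower, while Ehhadh was not lower (log2 difference 0.60, adjusted p = 0.502). The 3 Y-linked genes measured lay under the negative controls on all 3 fructose+sorbate arrays and on no fructose array. With their mean as a covariate neither fall passed (adjusted p of 0.693 for Scp2 and 0.581 for Acaa1a), and 1 probe set of the whole array did. The slope of that covariate rested mostly on fructose+benzoate array 1 against arrays 2 and 3, where the Y-linked signal split within a group. All values below are log2 signals, on which a difference of 1 is a doubling. Fold changes and adjusted p-values came from limma, with Benjamini-Hochberg adjustment over 22206 probe sets, and a gene is said to have risen or fallen where the adjusted p was under 0.05.

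**Figure D1:**
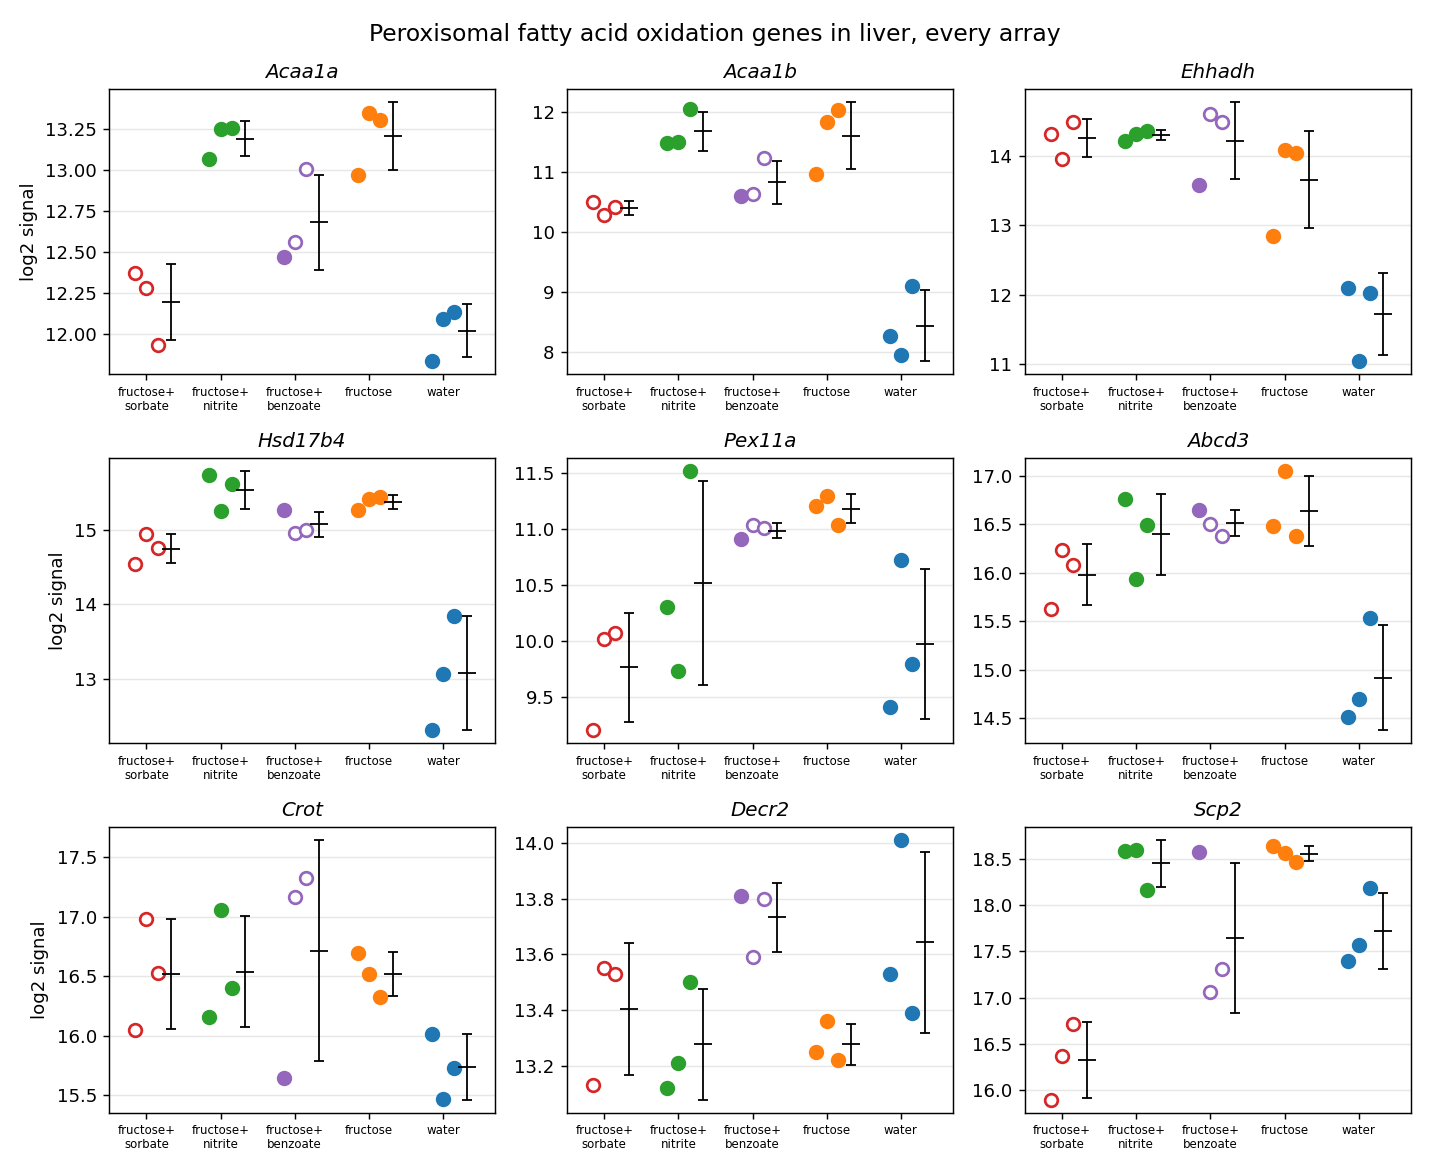
Log2 signal of each of the 9 genes (vertical axis, scaled per gene) on every array, by group on the horizontal axis; points are single arrays, bars the mean ± SD over 3 arrays. Open points are the 5 arrays on which the mean of 3 Y-linked genes lay under the negative controls: all 3 of fructose+sorbate and 2 of fructose+benzoate. Acaa1b lay between 10.97 and 12.03 in fructose livers and between 7.95 and 9.10 in water livers.

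Some array-wide measures moved with the groups and stand beside the results that follow. The mean of 4 hybridization controls, bacterial transcripts added at known amounts, was 11.93 to 12.22 in fructose livers and 12.64 to 13.21 in water livers. The median of the negative control probes ran the other way, at 6.33 to 6.53 in fructose livers, 6.03 to 6.58 in the groups with a preservative and 5.58 to 5.63 in water livers. Of 21 very long, broadly expressed transcripts, 20 were higher and 0 lower in fructose than in water livers, with array means of 10.00 to 10.60 in fructose livers and 8.05 to 8.80 in water livers. Of 61 cytosolic ribosomal protein genes, 0 were higher and 48 lower, with array means of 12.27 to 12.40 in fructose livers and 13.36 to 13.40 in water livers. The 3 Y-linked genes named in the annotation (Eif2s3y, Kdm5d and Uty) averaged 3.39 to 4.17 on the 3 fructose+sorbate arrays, 3.57 and 3.51 on fructose+benzoate arrays 2 and 3, and 9.37 to 10.00 on the other 10 arrays. The same 5 arrays held Cyp2b9, a P450 known to be higher in female mouse liver, at 18.07 to 18.59, against 4.80 to 6.64 on the other 10 arrays. The labels give no sex, and the methods state that each group of the study held both sexes in equal parts. Hepatocyte markers (8 of 8 measured) were high on every array, as the label liver requires, with array means of 18.23 to 18.30 in fructose livers and 17.20 to 17.92 in water livers, and 3 of the 8 rose and 0 fell in that comparison. All 9 genes exceeded the median of the negative control probes on every array, by 2.32 or more.

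Acaa1b and Ehhadh were each higher than in water livers in all 4 fructose-drinking groups but had log2 differences of opposite sign between fructose+sorbate and fructose livers (-1.21 and 0.60, neither past the threshold), and their upstream sequences are shown so that the pair can be compared. The sequences are RefSeq's 250 bases before each gene's start in GRCm38.p6, read 5′ to 3′ along the gene, with matches to CCAAT and GGGCGG on either strand in capitals.
Acaa1b, chr9:119157094-119157343, minus strand: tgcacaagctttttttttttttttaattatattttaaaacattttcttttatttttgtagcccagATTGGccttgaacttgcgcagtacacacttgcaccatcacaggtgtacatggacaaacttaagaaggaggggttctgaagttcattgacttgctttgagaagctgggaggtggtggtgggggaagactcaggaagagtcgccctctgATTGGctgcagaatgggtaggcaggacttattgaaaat
Ehhadh, chr16:21787835-21788084, minus strand: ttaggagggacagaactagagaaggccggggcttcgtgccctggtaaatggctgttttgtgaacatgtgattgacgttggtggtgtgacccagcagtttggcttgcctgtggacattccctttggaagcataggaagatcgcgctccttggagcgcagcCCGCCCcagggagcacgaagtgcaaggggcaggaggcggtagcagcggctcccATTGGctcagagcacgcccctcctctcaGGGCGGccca
Both windows held CCAAT on the reverse strand at positions -38 to -34 from the start, and the Acaa1b window held it again at -185 to -181. GGGCGG was in the Ehhadh window at -10 to -5 and, on the reverse strand, at -91 to -86. Windows were at hand for 8 of the 9 genes. CCAAT was in the windows of 4 of these 8 genes (Acaa1a, Acaa1b, Ehhadh and Crot) and in 33.8% of all 32851 promoter windows. GGGCGG was in those of 5 genes (Acaa1a, Ehhadh, Crot, Decr2 and Scp2) and in 32.7% of all windows. The nuclear receptor element AGGTCA was in the Scp2 window alone, at -109 to -104, and in 14% of all windows. The direct repeat of AGGTCA with 1 base between the copies, allowing up to 3 mismatches, was in 0 member windows and in 21.3% of all, and TATAAA was in 0 member windows and in 12.4% of all. Sequence beyond these 250 bases was not searched, so elements elsewhere would have been missed.

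The first question was how the genes differed between fructose and water livers. Abcd3, the ABC transporter of the peroxisomal membrane also known as PMP70, had signals of 16.48, 17.05 and 16.38 in fructose livers, against 14.51, 14.70 and 15.53 in water livers. All 3 fructose arrays lay above all 3 water arrays, and water replicate 3 was the nearest to them. The log2 fold change was 1.73 ± 0.30 (SE; adjusted p = 0.000493).

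Ehhadh encodes the L-bifunctional enzyme, which hydrates and dehydrogenates straight-chain and dicarboxylic acyl-CoAs. Its signals were 12.85, 14.08 and 14.04 in fructose livers, against 12.09, 11.04 and 12.03 in water livers. Fructose replicate 1 was the lowest of its group but stayed above every water array. The log2 fold change was 1.93 ± 0.36 (adjusted p = 0.000852). Hsd17b4 encodes the D-bifunctional enzyme, which acts at the same steps and also takes branched chains and bile acid precursors. Its signals were 15.26, 15.41 and 15.44 in fructose livers, against 12.31, 13.06 and 13.84 in water livers. The fructose arrays lay within 0.17 of each other, the water arrays were spread over 1.53, and the groups did not overlap. The log2 fold change was 2.30 ± 0.30 (adjusted p = 7.67e-05).

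Acaa1a and Acaa1b encode the peroxisomal 3-ketoacyl-CoA thiolases of the last step, and lie 184 kb apart on chromosome 9 with 4 protein-coding genes between them. Because their transcripts are closely alike, signal shared between their probe sets is possible and was not tested. Acaa1b had signals of 10.97, 11.83 and 12.03 in fructose livers, against 8.26, 7.95 and 9.10 in water livers. The lowest fructose array was well above the highest water array. The log2 fold change was 3.18 ± 0.32 (adjusted p = 4.01e-05). Acaa1a had signals of 12.97, 13.35 and 13.31 in fructose livers, against 11.83, 12.09 and 12.13 in water livers. The groups did not overlap here either, with a smaller log2 fold change of 1.19 ± 0.22 (adjusted p = 0.00103).

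Scp2, whose transcripts encode a thiolase of branched chains (SCPx) and the sterol carrier protein 2, had signals of 18.64, 18.56 and 18.47 in fructose livers, against 17.40, 17.57 and 18.18 in water livers. The groups did not overlap, but the log2 fold change of 0.84 ± 0.34 did not pass (adjusted p = 0.0764). Without water replicate 3 it passed (1.07, adjusted p = 0.0322). Crot, carnitine octanoyltransferase, which makes carnitine esters of shortened chains for export, had signals of 16.70, 16.52 and 16.33 in fructose livers, against 16.02, 15.47 and 15.73 in water livers. Again the arrays separated without passing (log2 fold change 0.78 ± 0.37, adjusted p = 0.138). Decr2 encodes 2,4-dienoyl-CoA reductase of the peroxisome, needed for unsaturated chains. It was the only one of the 9 with a lower mean in fructose livers, at 13.25, 13.36 and 13.22, against 13.53, 14.01 and 13.39 in water livers. The log2 fold change of -0.37 ± 0.23 did not pass (adjusted p = 0.246), and its 95% interval ran from -0.84 to 0.10.

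Pex11a, a membrane protein that promotes the division and proliferation of peroxisomes, had signals of 11.21, 11.30 and 11.04 in fructose livers, against 9.41, 10.72 and 9.79 in water livers. The groups did not overlap, and water replicate 2 came closest to the fructose arrays. The log2 fold change was 1.21 ± 0.39 (adjusted p = 0.0296), and this call was lost in 5 of 6 fits that left out 1 fructose or water array, with adjusted p up to 0.129.

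In total 6 of the 9 genes rose and 0 fell, where 24.4% of all probe sets passed in either direction and 11.8% rose. All 6 also changed over 2-fold, where 15.5% of all probe sets did so at the same adjusted p. The arrays of the groups did not overlap for any of the 9 genes, 8 of them higher and 1 lower, where 36.6% of all probe sets did not overlap. The median log2 fold change of the 9 genes was 1.21, and that of all probe sets was -0.12. With the hybridization control mean as a covariate, none of the 6 rises passed: the log2 fold change was then 2.18 for Acaa1b (adjusted p = 0.434), 0.73 for Ehhadh (0.795) and between 1.04 and 1.66 for the other 4. Under that covariate limma called 0 probe sets of the whole array in this comparison, so diet and the hybridization control level cannot be told apart here. In bulk liver RNA, fewer cells of a type and less RNA per cell cannot be told apart either.

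**Figure D2:**
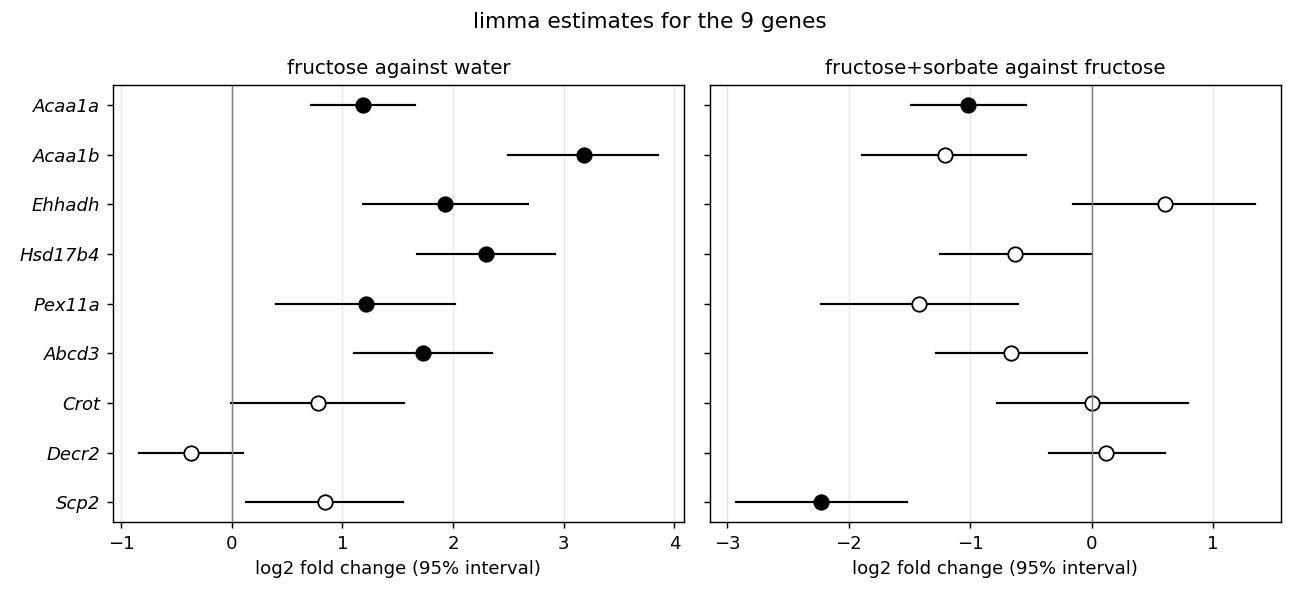
Log2 fold change of each gene (horizontal axis) with its 95% interval from limma, for fructose against water (left) and fructose+sorbate against fructose (right); filled points have an adjusted p under 0.05, open points do not. On the left 6 genes are filled and above 0, with Acaa1b at 3.18; on the right Scp2 at -2.23 and Acaa1a at -1.02 are filled and below 0.

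The groups that drank fructose with a preservative were set against the same 3 water arrays, so the 4 water comparisons share those arrays and are given side by side. The hybridization control means were 11.68 to 12.15 in fructose+sorbate, 11.75 to 12.04 in fructose+nitrite and 11.99 to 12.40 in fructose+benzoate livers, all under those of water livers. With them as a covariate 0 of the 9 genes passed in any of the 4 water comparisons. Under that covariate limma called 1 probe set of the whole array in fructose+benzoate and 0 in the other groups against water. The 0 of 9 thus says nothing particular to these genes. Without the covariate, Acaa1b, Ehhadh, Hsd17b4 and Abcd3 rose in each of the 4. For Acaa1b the log2 fold change against water was 1.96 in fructose+sorbate, 3.24 in fructose+nitrite, 2.39 in fructose+benzoate and 3.18 in fructose livers. For Ehhadh it was 2.53 in fructose+sorbate, 2.57 in fructose+nitrite, 2.50 in fructose+benzoate and 1.93 in fructose livers. The order of the group means thus differed between the genes, with fructose+sorbate lowest for Acaa1b and fructose alone lowest for Ehhadh. For Ehhadh, however, the arrays of the 4 fructose-drinking groups overlapped at each step of that order. Hsd17b4 ranged from 1.67 in fructose+sorbate to 2.46 in fructose+nitrite, and Abcd3 from 1.07 in fructose+sorbate to 1.73 in fructose livers.

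In fructose+sorbate against water livers, 4 of the 9 genes rose and 1 fell, where 36.5% of all probe sets passed in either direction. The fall was that of Scp2, with signals of 15.90, 16.37 and 16.72 in fructose+sorbate livers, against 17.40, 17.57 and 18.18 in water livers. The groups did not overlap, and Scp2 fell by 1.39 on the log2 scale (adjusted p = 0.00393). With the Y-linked mean as a covariate its log2 fold change was -0.17 (adjusted p = 0.857), and Hsd17b4 alone of the 9 genes passed (1.98, adjusted p = 0.0362). Under that covariate 687 probe sets of the whole array were higher and 379 lower, against 3703 and 4397 without it. Within groups the Y-linked mean varied mainly in fructose+benzoate livers (SD 3.73, against 0.17 to 0.40 in the other groups). The covariate's slope thus rested mostly on fructose+benzoate array 1 against arrays 2 and 3. Acaa1a did not pass in this comparison, at 12.37, 12.28 and 11.93 in fructose+sorbate livers, against 11.83, 12.09 and 12.13 in water livers, and these arrays overlapped (log2 fold change 0.18, adjusted p = 0.563). Pex11a also overlapped, at 9.20, 10.02 and 10.07 in fructose+sorbate livers, against 9.41, 10.72 and 9.79 in water livers (log2 fold change -0.21, adjusted p = 0.696). In all, 6 genes did not overlap, where 42.4% of all probe sets did not.

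In fructose+nitrite against water livers, 5 genes rose and 0 fell, where 34.8% of all probe sets passed. Acaa1a was among them, at 13.07, 13.25 and 13.26 in fructose+nitrite livers, against 11.83, 12.09 and 12.13 in water livers, and the groups did not overlap (log2 fold change 1.18, adjusted p = 0.000616). Pex11a was not, with 10.30, 9.73 and 11.52 in fructose+nitrite livers, the widest spread of any of the 9 genes in any group (range 1.79). Again 6 genes did not overlap, where 43.4% of all probe sets did not. In fructose+benzoate against water livers, 5 genes rose and 0 fell, where 34.3% of all probe sets passed. Acaa1a had signals of 12.47, 12.56 and 13.01 in fructose+benzoate livers, all above the 3 water arrays, with a log2 fold change of 0.66 (adjusted p = 0.0296). This call was lost without water replicate 1 or without fructose+benzoate replicate 3, with adjusted p up to 0.147. It was also lost with the Y-linked mean as a covariate (log2 fold change 0.51, adjusted p = 0.28). Under that covariate 1804 probe sets of the whole array were higher and 1453 lower, against 3467 and 4144 without it. Its slope rested mostly on the split among these same fructose+benzoate arrays. Pex11a and Crot came close to the threshold in that comparison, with log2 fold changes of 1.01 (adjusted p = 0.0509) and 0.98 (adjusted p = 0.0502). Pex11a passed without water replicate 2 (adjusted p = 0.0147), and Crot without fructose+benzoate replicate 1 (adjusted p = 0.00134). Among the fructose+benzoate arrays, replicate 1 alone had the Y-linked genes at a high level, as all water arrays did, and it held Crot at 15.65. With the Y-linked mean as a covariate, the log2 fold change was 0.05 for Crot (adjusted p = 0.953) and 0.92 for Pex11a (adjusted p = 0.259). Here too 6 genes did not overlap, where 40.5% of all probe sets did not.

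The second question was what each preservative added to fructose, and the 3 comparisons share the fructose arrays. In fructose+sorbate against fructose livers, 0 of the 9 genes rose and 2 fell, where 0.635% of all probe sets passed in either direction and 0.225% fell. Scp2 had signals of 15.90, 16.37 and 16.72 in fructose+sorbate livers, against 18.64, 18.56 and 18.47 in fructose livers. The highest fructose+sorbate array was far below the lowest fructose array. Scp2 fell by 2.23 on the log2 scale (SE 0.34, adjusted p = 0.0076). Without fructose+sorbate replicate 1, the lowest array, the adjusted p was 0.0544.

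Acaa1a had signals of 12.37, 12.28 and 11.93 in fructose+sorbate livers, against 12.97, 13.35 and 13.31 in fructose livers. The groups did not overlap, and Acaa1a fell by 1.02 on the log2 scale (SE 0.22, adjusted p = 0.0445). This call was lost in each of the 6 fits that left out 1 array, with adjusted p between 0.0924 and 0.165. Its neighbour Acaa1b had signals of 10.50, 10.28 and 10.42 in fructose+sorbate livers, against 10.97, 11.83 and 12.03 in fructose livers. These did not overlap either, but the log2 fold change of -1.21 ± 0.32 did not pass (adjusted p = 0.0986). Pex11a was at 9.20, 10.02 and 10.07 in fructose+sorbate livers, against 11.21, 11.30 and 11.04 in fructose livers. Its log2 fold change of -1.42 ± 0.39 did not pass (adjusted p = 0.106), although no array of one group reached the other.

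Hsd17b4 was at 14.54, 14.94 and 14.76 in fructose+sorbate livers, against 15.26, 15.41 and 15.44 in fructose livers. Abcd3 was at 15.63, 16.23 and 16.08 in fructose+sorbate livers, against 16.48, 17.05 and 16.38 in fructose livers. Abcd3 (log2 fold change -0.66) and Hsd17b4 (-0.63) had no overlap between the groups and did not pass (adjusted p of 0.343 and 0.374). Ehhadh was at 14.32, 13.95 and 14.49 in fructose+sorbate livers, against 12.85, 14.08 and 14.04 in fructose livers. These arrays overlapped, and the 95% interval of the log2 difference ran from -0.15 to 1.34. Crot (log2 fold change 0.00) and Decr2 (0.12) overlapped as well, with 95% intervals of -0.78 to 0.79 and -0.35 to 0.60. In all, 6 genes did not overlap between the groups, all of them lower, where 23.1% of all probe sets did not overlap and 10.8% were lower without overlap. By a looser criterion (a 2-fold change and p under 0.05 without adjustment), 4 of the 9 genes passed (Scp2, Acaa1a, Acaa1b and Pex11a), where 3.00% of all probe sets did. The median log2 fold change was -0.66 over the 9 genes and -0.03 over all probe sets.

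All 3 fructose+sorbate arrays, and none of the fructose arrays, lacked the Y-linked signal. In this comparison 3 of 3 Y-linked genes fell and lay under the negative controls on all 3 fructose+sorbate arrays, 9 of 16 genes known to be higher in male mouse liver fell and 0 rose, and 13 of 20 genes known to be higher in female mouse liver rose and 0 fell. The array means of the male-biased genes were 10.47 to 11.12 in fructose+sorbate livers and 14.73 to 15.65 in fructose livers. Sorbate and what else separates arrays with and without the Y-linked signal, the sex of the mice included, cannot be told apart in this comparison. With the Y-linked mean as a covariate, the log2 fold change of Scp2 was -0.98 (adjusted p = 0.693), that of Acaa1a -1.25 (0.581) and that of Acaa1b -1.43 (0.608), and 0 of the 9 genes passed. Under this covariate 1 of all 22206 probe sets passed, so the count over the 9 genes says nothing particular to them. The adjusted values also rest mostly on fructose+benzoate array 1 against arrays 2 and 3, which set most of the covariate's slope.

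Within the fructose+benzoate group, Scp2 followed the same split, at 17.06 and 17.31 on arrays 2 and 3, which lacked the Y-linked signal, and at 18.57 on array 1, which had it. Crot ran the other way, at 17.17 and 17.33 on arrays 2 and 3 and at 15.65 on array 1. Outside this group no such split was seen for Crot. It was at 16.05 to 16.98 in fructose+sorbate livers, without the signal, and at 16.33 to 16.70 in fructose livers, with it. Pex11a differed little among the fructose+benzoate arrays, at 11.04 and 11.01 on arrays 2 and 3 and at 10.91 on array 1. Acaa1a was at 12.56 and 13.01 on arrays 2 and 3 and at 12.47 on array 1. Over all 15 arrays the Pearson correlation of Scp2 with the Y-linked mean was 0.85, a description in which the points fall into separate clusters.

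**Figure D3:**
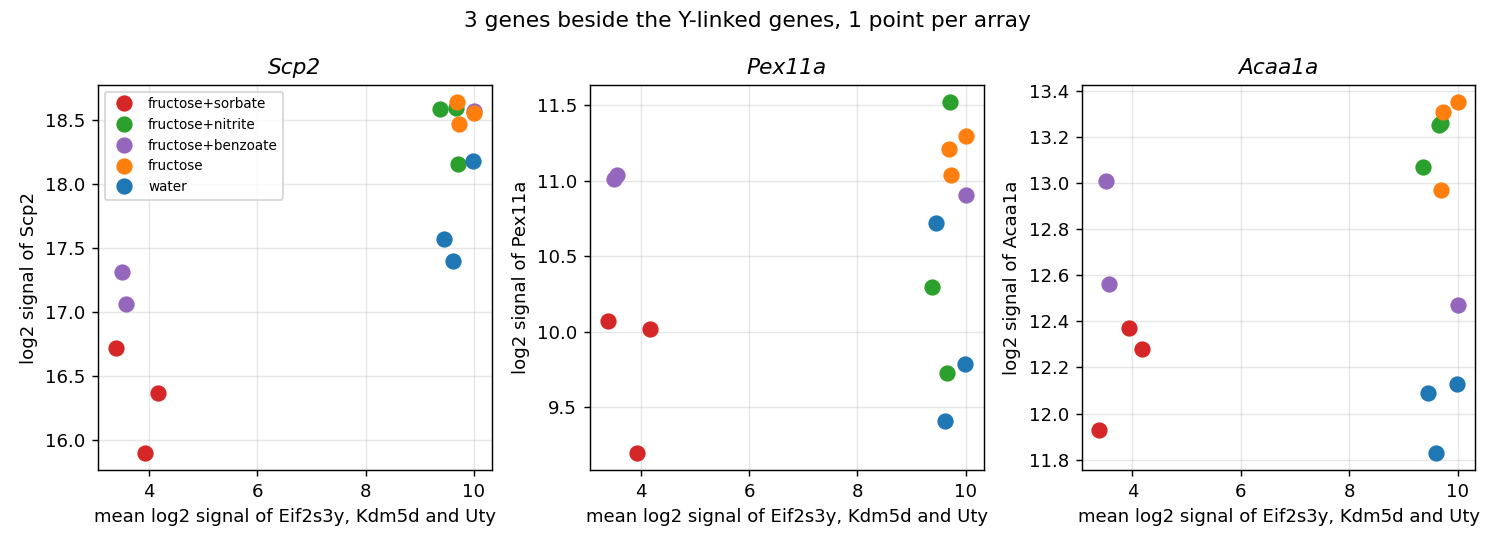
Log2 signal of Scp2, Pex11a and Acaa1a (vertical axes) against the mean log2 signal of 3 Y-linked genes (horizontal axis), 1 point per array, coloured by group. Scp2 lay between 15.90 and 17.31 on the 5 arrays with a Y-linked mean of 3.39 to 4.17 and between 17.40 and 18.64 on the other 10; Pex11a on fructose+benzoate arrays 2 and 3 was at 11.04 and 11.01, beside 9.20 to 10.07 in fructose+sorbate livers.

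In fructose+benzoate against fructose livers, 0 of the 9 genes passed, where 0.0135% of all probe sets did. At an unadjusted p under 0.05, Scp2 (log2 fold change -0.91), Acaa1b (-0.78) and Acaa1a (-0.53) passed, where 9.37% of all probe sets did. Leaving out fructose+benzoate arrays 2 and 3, so that array 1 stood alone and was taken to vary like the other groups, gave a log2 fold change of 0.02 for Scp2, -1.01 for Acaa1b and -0.74 for Acaa1a. Without array 1, Scp2 passed as lower (log2 fold change -1.37, adjusted p = 0.031). Decr2 and Pex11a were the genes whose arrays did not overlap, where 17.3% of all probe sets did not in this comparison. Decr2 was at 13.81, 13.59 and 13.80 in fructose+benzoate livers, against 13.25, 13.36 and 13.22 in fructose livers. Pex11a was at 10.91, 11.04 and 11.01 in fructose+benzoate livers, against 11.21, 11.30 and 11.04 in fructose livers. Its nearest arrays were thus equal after rounding (log2 fold change -0.20, adjusted p = 0.914).

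In fructose+nitrite against fructose livers, 0 of the 9 genes passed, as did 0% of all probe sets. None of the 9 passed at an unadjusted p under 0.05 either, where 5.20% of all probe sets did. The log2 fold changes lay between -0.67 (Pex11a) and 0.64 (Ehhadh), and their median was 0.00. For Acaa1b the 95% interval of the difference was -0.61 to 0.74, and for Scp2 it was -0.81 to 0.60. Ehhadh was at 14.22, 14.32 and 14.35 in fructose+nitrite livers, against 12.85, 14.08 and 14.04 in fructose livers, and was the single gene whose arrays did not overlap, where 16.2% of all probe sets did not.

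Ordered by group mean, water was lowest for 6 of the 9 genes: Acaa1a, Acaa1b, Ehhadh, Hsd17b4, Abcd3 and Crot. Of the 36 neighbouring pairs of groups in these orders, 11 did not overlap and 25 did. The same count was not made over all probe sets, so it says nothing particular to the 9 genes. For Ehhadh the order was fructose+nitrite, fructose+sorbate, fructose+benzoate, fructose and water, and the first step without overlap was that between fructose and water. For Acaa1a it was fructose, fructose+nitrite, fructose+benzoate, fructose+sorbate and water, with no overlap between fructose+nitrite and fructose+benzoate nor between fructose+benzoate and fructose+sorbate. With 3 arrays against 3, the smallest p of an exact permutation test of such a step is 0.1.

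Across the 15 arrays, which share the diet groups, Hsd17b4 went most closely with Acaa1b and with Abcd3, each at a Pearson correlation of 0.94. Once each group's mean was subtracted, the correlation of Hsd17b4 with Abcd3 was 0.81 and that with Acaa1b was 0.42. The 2 Acaa1 thiolases correlated at 0.87 and, within groups, at 0.61. Ehhadh and Scp2, which parted in fructose+sorbate livers, correlated at -0.14. The genes whose profile over the 15 arrays was most like the mean of the 9 were Lce1a2 and Hspb6 (Pearson 0.94 each), followed by Cyp2d13, Enpp3 and Ces1e (0.93 each). The least like it were Zfp760 and Tlx2 (-0.95 each), then Echdc3, H4c14 and Lyz2 (-0.93 each). Scp2 was looked at on its own after its values were seen, and its profile was nearest to those of Nox4 (0.96), Abcg2 and Cyp4a12b (0.94 each).

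Other genes of the peroxisome were counted in lists for fructose against water livers. Of 27 other genes of peroxisomal lipid oxidation and its supply, 6 rose and 2 fell, with a median log2 fold change of 0.45. Crat, a carnitine acetyltransferase, rose by 2.71 on the log2 scale (adjusted p = 0.00117). Lonp2, the Lon protease of the peroxisome, averaged 14.28 ± 0.15 in fructose livers and 12.28 ± 0.50 in water livers (SD, 3 arrays each; log2 fold change 2.00, adjusted p = 0.000108). Pecr, a trans-2-enoyl-CoA reductase, fell by 0.66 on the log2 scale (adjusted p = 0.0479). Acot5, an acyl-CoA thioesterase, was the other gene counted as lower, but it lay under the negative controls on all 6 arrays.

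Of 19 peroxins and membrane proteins of peroxisome assembly and division, 5 rose and 6 fell, with a median of 0.11. The receptor of the import signal, Pex5, rose by 1.58 on the log2 scale (adjusted p = 0.00222), and the membrane protein Pxmp4 by 1.71 (adjusted p = 0.0132). Mpv17 fell by 1.48 (adjusted p = 0.000407) and the fission adaptor Mff by 1.34 (adjusted p = 0.000796). Both act at mitochondria, and Mff at peroxisomes as well. Of 19 peroxisomal enzymes outside fatty acid oxidation, 2 rose and 1 fell, with a median of 0.02. Ephx2, the soluble epoxide hydrolase, rose by 2.14 (adjusted p = 0.000117) and Xdh, xanthine dehydrogenase, by 1.76 (adjusted p = 0.00189), and Agxt, which converts glyoxylate to glycine, fell by 1.09 (adjusted p = 0.0462).

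Among 17 genes of mitochondrial beta-oxidation, 9 rose and 0 fell, with a median of 0.63. Cpt1a, the carnitine palmitoyltransferase that controls entry into mitochondria, averaged 12.45 ± 0.37 in fructose livers and 9.52 ± 0.83 in water livers (log2 fold change 2.93, adjusted p = 7.98e-05). Hadha, the alpha subunit of the trifunctional protein, rose by 2.34 (adjusted p = 4.01e-05). A list of 17 genes held Ppara itself, Rxra, Ppargc1a and targets of PPARα outside the peroxisome. Of these 6 rose, Ppara and Rxra among them, and 0 fell, with a median of 1.02. The omega-hydroxylase Cyp4a10 rose by 4.16 (adjusted p = 0.0211). The pantetheinase Vnn1 also rose (adjusted p = 0.0013), at 9.04 ± 0.55 in fructose livers and 5.25 ± 0.98 in water livers, and no fold is given because the negative control median of the water arrays was 5.58 to 5.63. The 9 genes and these lists were read on the same arrays, on which 11.8% of all probe sets rose and 12.7% fell, and the part that the hybridization control level and the long transcripts have in these counts was not tested.

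**Figure D4:**
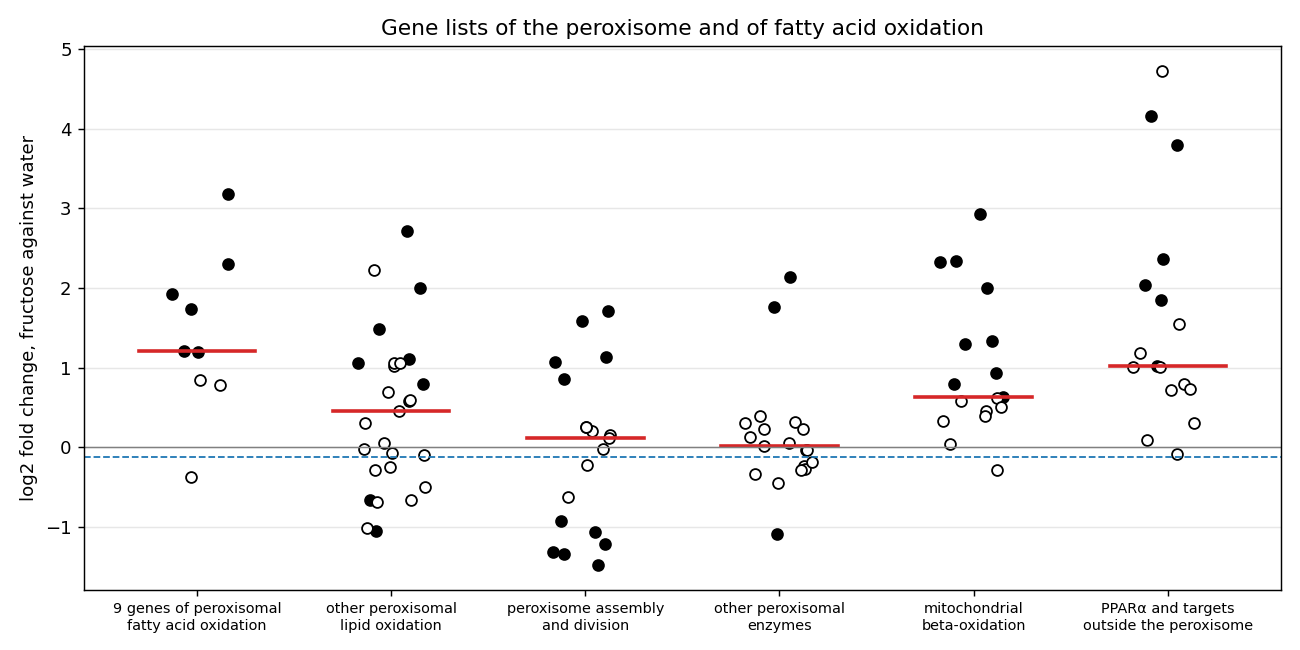
Log2 fold change of fructose against water livers (vertical axis) for the genes of each list (horizontal axis); filled points passed at an adjusted p under 0.05, open points did not, red bars are list medians and the dashed line is the median of all probe sets, -0.12. The medians were 1.21 for the 9 genes, 0.45 for other peroxisomal lipid oxidation, 0.11 for assembly and division and 0.02 for other peroxisomal enzymes. They were 0.63 for mitochondrial beta-oxidation and 1.02 for the list of Ppara, Rxra, Ppargc1a and PPARα targets. Genes under the negative controls are drawn at their measured values.

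In fructose+sorbate against fructose livers, where 0.635% of all probe sets passed, the same lists were counted. Of the 27 other lipid oxidation genes, the 19 peroxins and membrane proteins, the 17 mitochondrial genes and the 17 PPARα genes, 0 passed in either direction, with medians of 0.09, 0.04, 0.01 and 0.14. The log2 fold changes of the 27 ran from -2.07 (Nudt7, adjusted p = 0.0888) to 4.93 (Acot3, adjusted p = 0.0548). Nudt7 is also on the list of genes known to be higher in male mouse liver, and Acot3 on the female list. Among the 19 other peroxisomal enzymes 1 rose and 2 fell. The glycolate oxidase Hao1 fell by 1.75 (adjusted p = 0.0253) and Ephx2 by 1.34 (adjusted p = 0.0445). The hydroxyacid oxidase Hao2 averaged 8.34 ± 0.73 in fructose+sorbate livers and lay under the negative controls on all 3 fructose arrays, so it was at least 3.74-fold higher (adjusted p = 0.00899). Hao2 is also on the list of genes known to be higher in female mouse liver.

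Markers of other liver cells were read on the same arrays. In fructose against water livers, 4 of 8 sinusoidal endothelial markers rose and 1 fell, with array means of 9.12 to 9.51 in fructose livers and 8.20 to 8.92 in water livers. Of 8 Kupffer cell and macrophage markers, 0 rose and 4 fell, with array means of 8.57 to 8.90 in fructose livers and 9.65 to 9.79 in water livers. In fructose+sorbate against fructose livers, 3 of those 8 rose and 0 fell, with array means of 9.67 to 9.86 in fructose+sorbate livers. The part of these cells in the 9 genes' values was not tested.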

How the data were processed

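The authors deposited log2 signals per probe set, already background-corrected, normalized between arrays and summarised, by SST-RMA in the Transcriptome Analysis Console per the methods; the submitters' notes name RMA and the Affymetrix Expression Console 1.4. Groups came from the sample labels. The design text calls the 3 arrays of a group biological replicates and the paper describes 3 mice a group for the arrays. Sex, batch and scan date are not in the labels. Precision is limited by 3 arrays a group.

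Of 28846 entries, 6640 control entries were left out and 22206 probe sets were tested, 19572 of them with 1 symbol. In R 4.3.3 (with data.table version 1.17.8), all 15 arrays entered a single limma 3.58.1 fit with a mean for each group and Benjamini-Hochberg adjustment over all tested probe sets. A gene was called at an adjusted p under 0.05 with any fold change, and counts that also ask for a 2-fold change, as in the methods, are named as such. A gene under the median of its arrays' negative controls throughout a group was given as a bound against that median. The fit was tested on simulated data. The genes, lists and tests were chosen with earlier results of these data known, so no list is independent evidence. Beside the 9 genes, the text names the 2 largest rises and falls past the threshold in each list, the Y-linked genes and the 5 genes most and least like the mean of the 9. Genes such as Cyp2b9, Acot3 and Nudt7 and the profile of Scp2 were chosen after values were seen. Names and promoter windows came from RefSeq (GRCm38.p6). Alternatives covered scaling, low-signal filters, variance estimates, array weights, covariates, the replicate block, the arrays fitted, and leaving out arrays.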

Additional observations from a re-analysis of the deposited data

How the results depend on the processing

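Against the 6 genes that rose in fructose against water livers, leaving out 1 array gave 5 to 6. The ranges were 4 to 6 for fructose+benzoate, 5 to 6 for fructose+nitrite and 5 to 5 for fructose+sorbate against water, and 0 to 1, 0 to 0 and 0 to 1 for fructose+benzoate, fructose+nitrite and fructose+sorbate against fructose. With the hybridization controls as a covariate 0 genes passed in each of the 4 water comparisons, where limma called at most 1 probe set of the whole array. Without water replicates 1 and 2, 2 genes passed in fructose (Acaa1b and Hsd17b4), 3 in fructose+benzoate and 3 in fructose+sorbate against water. The slope of the Y-linked covariate rested mostly on the fructose+benzoate arrays. With it 1 gene passed in fructose+sorbate against water and 0 in fructose+sorbate against fructose. That last comparison, with 2 genes reported, gave 1 with arrays centred on their median, 1 with a robust variance, 4 with array weights and 4 in a fit of only the groups compared; over the whole array, 91 probe sets higher and 50 lower became 111 and 42, 61 and 23, 417 and 237, and 351 and 160 in that order. Array weights gave 1 gene in fructose+benzoate against fructose, with 164 probe sets higher and 107 lower over the whole array. The causes of these moves were not tested. Over the single genes, 1125 alternative values of 63 results held 1038 on the same side of the threshold, 58 that lost a call and 29 that gained one; the 53 changes of sign were all of values called in neither fit.

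Replicate numbers did not pair the samples: same-numbered arrays of different groups had correlations of deviations between -0.0781 and 0.222 over 30 pairs, 5 of them above 0.1, and 7 of 15 arrays were closest to their own number. With the replicate block 6 genes still passed in fructose against water, and Acaa1b passed in fructose+sorbate against fructose (-1.21, adjusted p = 0.0412), as did Pex11a (1.01, adjusted p = 0.0468) and Crot (0.98, adjusted p = 0.0418) in fructose+benzoate against water, where 7 genes passed instead of 5. The alternative of the probe set with the lowest mean could not be run, since each gene has 1 probe set. Leaving out fructose+benzoate arrays 2 and 3 together was chosen after seeing the data.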
